A study of Mus musculus with 27 samples.

Results

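The livers described here had lost SCAP, and in one of the 2 groups HDAC3 as well. The comparison of Double LKO livers, which lack both genes, with SCAP LKO livers, which lack SCAP alone, asks which changes follow HDAC3 loss where SREBP factors cannot be processed. Members were chosen by the labelled genotype and virus, which gave 3 Double LKO and 4 SCAP LKO samples, 7 of the 27 samples of the study and of its 17 RNA samples. All livers came from C57Bl/6 mice fed ad libitum and taken 10 days after injection of adeno-associated virus serotype 8 (AAV8), a vector that reaches hepatocytes. Double LKO mice were HDAC3/SCAP floxed and SCAP LKO mice were SCAP floxed, and both received Cre, the recombinase that removes floxed sequence. HDAC3 LKO livers (n = 4, HDAC3 floxed mice given Cre) and GFP control livers (n = 6, with 2 from each of the HDAC3, SCAP and HDAC3/SCAP floxed lines, given GFP) supplied the effect of HDAC3 loss with SCAP present. Unlike the comparison with GFP controls, the main comparison has Cre on both sides. A difference between the 2 comparisons therefore carries the contrast of Cre with GFP as well as that of SCAP, and these cannot be told apart. The promoter that drives Cre, the sex and the age of the mice are not given in the labels. Nothing in the labels says that each library is 1 animal, so p-values measure the spread between these libraries.

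HDAC3 removes acetyl groups from histones as the catalytic subunit of corepressor complexes such as that of NCoR, which nuclear receptors such as the REV-ERB repressors bring to their target genes. Mouse liver that loses HDAC3 is known for lipid accumulation. SCAP escorts SREBP transcription factors from the endoplasmic reticulum to the Golgi, where they are cut into their active nuclear form. SREBP1c drives genes of fatty acid synthesis and SREBP2 drives genes of cholesterol synthesis, so a liver without SCAP carries little of either signal.

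The libraries held 3736618 to 20622671 counts over genes in Double LKO and 3546597 to 7788828 in SCAP LKO livers. CPM below are counts scaled to library size (TMM). *Hdac3* was at 9.2, 11.5 and 12.4 CPM in Double LKO libraries 2, 3 and 4, against 41.6, 39.4, 38.4 and 36.4 CPM in SCAP LKO replicates 1 to 4, a log2 fold change of -1.78 (SE 0.12, adjusted p = 5.51e-08). *Scap* was at 46.5, 45.5 and 50.8 CPM in Double LKO and 52.3, 59, 43.9 and 50.3 CPM in SCAP LKO libraries, against 91.2 to 138 (median 115) CPM in GFP controls, and did not differ beyond the spread between the knockouts (log2 -0.10, adjusted p = 0.729). Double LKO library 2, the shallowest of its group, stood apart on the second principal component (45.8, against 1.6 and 8.7 for libraries 3 and 4), and SCAP LKO replicate 4 was next at 25.7. Results that rest on these libraries are given with and without them. The floxed line also differs between the groups, since Double LKO livers come from the double-floxed line and SCAP LKO livers from the SCAP-floxed line. Subtracting the difference between the GFP controls of those lines (2 each) kept the sign of 955 of the 959 genes called below but left 64 genes called in all, 58 of them among the 959. HDAC3 loss and line therefore cannot be fully told apart here.

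Loss of HDAC3 on top of SCAP loss was followed by higher counts of 598 genes and lower counts of 361 genes of 12009 tested, 959 in all (7.99% of genes tested, 4.98% higher and 3.01% lower). A gene is called where edgeR's quasi-likelihood test gave a Benjamini-Hochberg adjusted p under 0.05. Of the calls, 201 were at least 2-fold, 139 higher and 62 lower. The libraries of the 2 groups do not overlap in 18.2% of genes tested, with Double LKO all above in 9.13% and all below in 9.11%. With SCAP present, 1666 genes were called in HDAC3 LKO against GFP control livers (13.9%, 946 higher and 720 lower, 7.88% and 6.00%). The comparisons without and with SCAP share no library. They shared 657 called genes, of which 656 had the same direction in both and 1, *Fads2*, the opposite. Of the 598 genes called higher in Double LKO against SCAP LKO livers, 73.6% were also called higher in HDAC3 LKO livers, and of the 361 called lower 59.8% were also called lower. From the other side, 46.5% of the 946 genes higher in HDAC3 LKO livers and 30% of the 720 lower ones were called the same way once SCAP was absent. With called and uncalled genes counted, 95.5% of the 946 had a log2 fold change above 0 without SCAP (median 0.46, against 0.56 with SCAP). Counted in that way, 95.3% of the 720 had one below 0 (median -0.34, against -0.46 with SCAP). Most of the uncalled genes in each set therefore leaned the same way. The median over all genes tested was -0.02 in each comparison. In bulk liver, fewer cells of a type and less RNA per cell cannot be told apart.

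**Figure D1:**
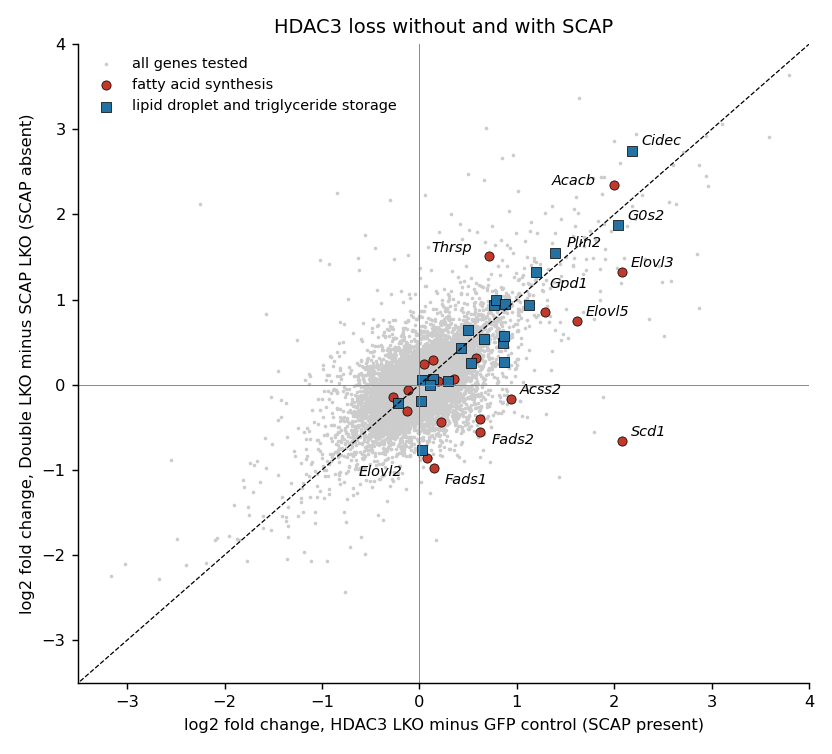
Log2 fold change of each gene tested, Double LKO minus SCAP LKO (vertical axis, SCAP absent) against HDAC3 LKO minus GFP control (horizontal axis, SCAP present), with 5 genes outside the axes and a dashed line of equal effects. Most lipid droplet genes (squares) lie near the line, while *Scd1*, *Fads1*, *Fads2* and *Elovl2* among the fatty acid synthesis genes (circles) lie below 0 on the vertical axis.

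Subunits of the corepressor itself moved with HDAC3 loss. Of 13 genes of corepressor subunits and HDAC proteins, 3 rose and *Hdac3* fell, and 9 did not pass. *Tbl1xr1*, a WD40 subunit of the NCoR complex, was at 179, 195 and 191 CPM in Double LKO livers, against 74.8, 65.3, 68.9 and 65.5 CPM in SCAP LKO livers. The groups do not overlap and its log2 fold change was 1.46 (SE 0.10, adjusted p = 5.51e-08), beside 1.18 with SCAP present. Its relative *Tbl1x* was at 64.8, 67.7 and 70.5 CPM in Double LKO and 50.4, 39.4, 44.9 and 46.5 CPM in SCAP LKO livers (log2 0.58, SE 0.12, adjusted p = 0.00349). *Hdac5*, a class IIa deacetylase that binds the same complex, was at 43, 57.5 and 55.9 CPM in Double LKO and 31.5, 24.5, 29.5 and 27 CPM in SCAP LKO livers (log2 0.90, SE 0.13, adjusted p = 0.000205). In both genes each Double LKO library lay above each SCAP LKO library. The scaffold *Ncor1* (log2 0.18) and the small subunit *Gps2* (log2 0.19) did not pass. All 4 calls remained without Double LKO library 2 and SCAP LKO replicate 4, and *Tbl1x* lost its call when the line difference was subtracted (log2 0.78, adjusted p = 0.0832).

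REV-ERB repressors, which need HDAC3 to silence genes, act on the clock. *Arntl*, the clock activator BMAL1 and a classic REV-ERB target, was at 3.45, 6.3 and 6.01 CPM in Double LKO livers, against 1.21, 0.816, 1.54 and 1.27 CPM in SCAP LKO livers, so every Double LKO library was above every SCAP LKO library. Its log2 fold change of 2.10 (SE 0.29, adjusted p = 0.000201) stood beside 2.18 with SCAP present (adjusted p = 1.22e-05). *Clock*, its partner, rose by 0.64 (SE 0.12, adjusted p = 0.00296) to 74.3, 100.2 and 92.2 CPM in Double LKO livers, against 57.1, 54.7, 59.7 and 57.3 CPM in SCAP LKO livers. The repressors *Per1* and *Per2* were called lower, at log2 -0.64 and -0.60 (adjusted p = 0.0391 and 0.0379). These calls were lost without any 1 of 6 (*Per1*) and any 1 of 5 (*Per2*) of the 7 libraries, and *Per2* had -0.25 with the line difference subtracted. *Nr1d1* and *Nr1d2*, which encode the REV-ERBs, had log2 values of -0.02 and -0.23 and did not pass. In all 2 of 17 clock genes tested rose, 2 fell and 13 did not pass, and none was called with the line difference subtracted. The hour at which livers were taken is not given in the labels.

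Genes of triglyceride storage had one of the largest shares of members called higher, beside glutathione transferases and xenobiotic metabolism, as the plot of list shares shows, and the order of these lists changed between tools and with single libraries left out. Of 22 lipid droplet and triglyceride genes tested, 9 rose and none fell, with a median log2 fold change of 0.51 against -0.02 over all genes. With SCAP present 14 of the same 22 rose, at a median of 0.71. *Plin2*, the main coat protein of hepatocyte lipid droplets, was at 989, 522 and 467 CPM in Double LKO livers, against 253, 204, 218 and 226 CPM in SCAP LKO livers. Library 2 held the highest level, and libraries 3 and 4 also lay above every SCAP LKO library (log2 1.55, SE 0.21, adjusted p = 0.000186, and 1.14 without library 2). *Gpd1*, which makes the glycerol 3-phosphate backbone of triglyceride, was at 1051, 1387 and 1192 CPM in Double LKO livers, against 506, 516, 494 and 419 CPM in SCAP LKO livers. It rose by 1.32 (SE 0.15, adjusted p = 3.18e-05), close to its 1.20 with SCAP present, and it was the member of the list still called with the line difference subtracted. *Cidec*, which fuses lipid droplets, was at 69.2, 11 and 12.7 CPM in Double LKO livers, against 3.87, 2.45, 4.36 and 5.47 CPM in SCAP LKO livers. Library 2 alone carried much of its log2 fold change of 2.75 (SE 0.54, adjusted p = 0.00299), which was 1.48 without that library (adjusted p = 0.00389).

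Lipases of the droplet and some of the proteins around them were also among the calls. *Pnpla2*, the adipose triglyceride lipase, was at 72.7, 90.2 and 80 CPM in Double LKO livers, against 47.5, 47.1, 34.1 and 40.7 CPM in SCAP LKO livers (log2 0.95, SE 0.11, adjusted p = 6.35e-05). Its inhibitor *G0s2* was at 98.2, 240.4 and 322 CPM in Double LKO livers, against 62.2, 45.4, 109.8 and 22.9 CPM in SCAP LKO livers. These groups overlap, because library 2 lay below SCAP LKO replicate 3, and the log2 fold change of 1.87 (SE 0.44, adjusted p = 0.0106) was 0.59 with the line difference subtracted (adjusted p = 0.824) and lost its call without library 4. The hormone-sensitive lipase *Lipe* rose by 0.94 (adjusted p = 0.0185, lost without Double LKO library 3 or SCAP LKO replicate 3 or 4, at 0.56 without library 3) and the monoglyceride lipase *Mgll* by 0.54 (adjusted p = 0.00868, lost without library 4). *Fitm1* and *Fitm2*, which help droplets bud from the endoplasmic reticulum, rose by 1.00 and 0.64. The acyltransferase *Dgat2*, which makes triglyceride, was at 381, 662 and 559.9 CPM in Double LKO and 599, 570.4, 564 and 419 CPM in SCAP LKO livers, a difference that was not called (log2 -0.01). *Plin5*, which ties droplets to mitochondria, was called with SCAP present (log2 0.86) and was at 0.26 without SCAP, a difference of -0.60 at an unadjusted p of 0.00989. Without Double LKO library 2 and SCAP LKO replicate 4 together 10 of the 22 genes rose. The adipocyte markers *Adipoq* and *Plin1* are too low to be tested.

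**Figure D2:**
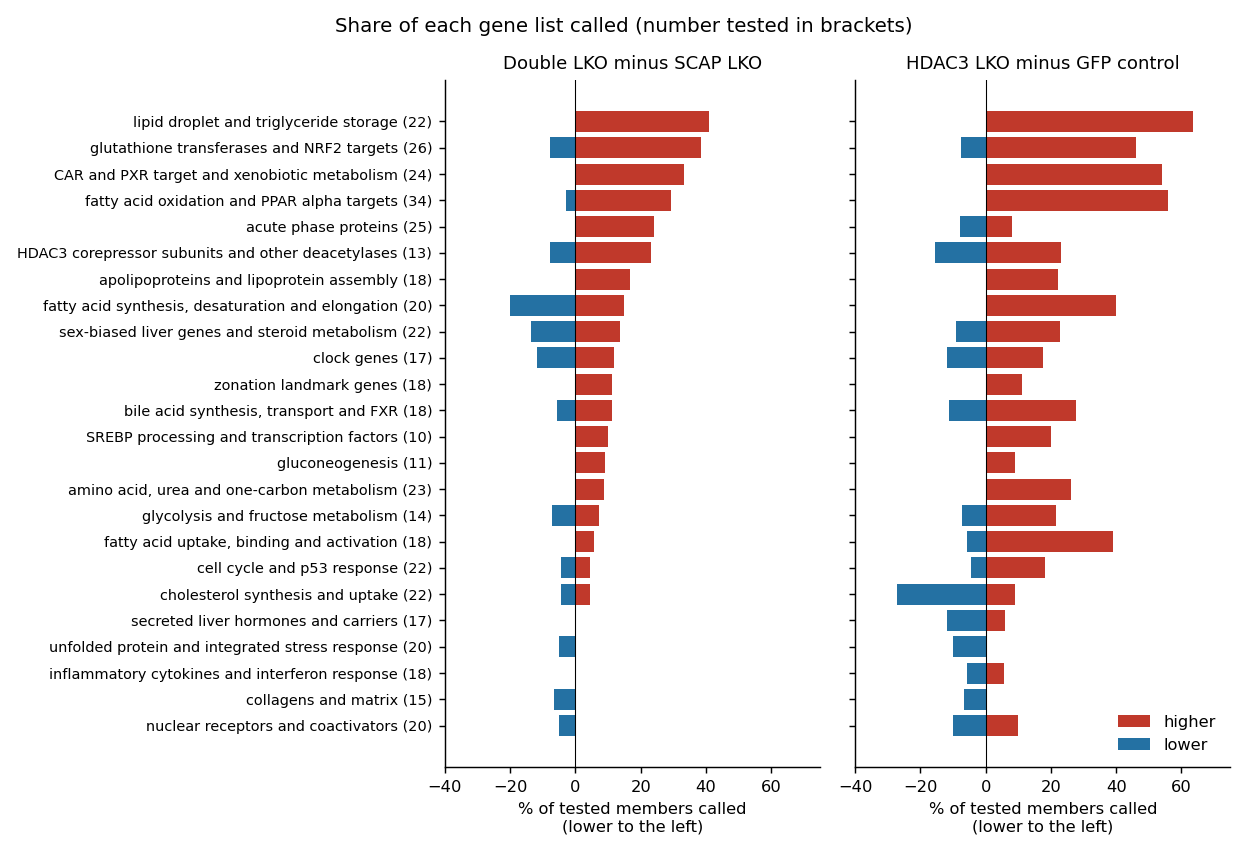
Share of the tested members of each gene list called higher (to the right of 0) or lower (to the left of 0), for Double LKO minus SCAP LKO (left panel) and HDAC3 LKO minus GFP control (right panel), with the number tested in brackets. Lipid droplet genes head the left panel with 9 of 22 called higher, while fatty acid synthesis genes have 3 higher and 4 lower there and 8 higher with SCAP present.

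Genes of fatty acid oxidation with a call were nearly all higher. Of 34 genes of this list, which includes targets of the lipid sensor PPAR alpha, 10 rose, 1 fell and 23 did not pass, at a median of 0.41. With SCAP present 19 rose and none fell, at a median of 0.47. *Cyp4a10*, a fatty acid omega-hydroxylase, was at 293, 877 and 541 CPM in Double LKO livers, against 58.4, 147, 63.8 and 47.9 CPM in SCAP LKO livers (log2 2.86, SE 0.37, adjusted p = 8.66e-05). *Ehhadh*, the peroxisomal bifunctional enzyme, was at 326, 556 and 413 CPM in Double LKO livers, against 171, 182, 218 and 133 CPM in SCAP LKO livers (log2 1.29, SE 0.17, adjusted p = 8.66e-05). In both genes every Double LKO library lay above every SCAP LKO library. With SCAP present *Ehhadh* spanned 1115 to 1209 CPM in HDAC3 LKO livers and 306 to 408 (median 369) CPM in GFP controls. *Cpt1b*, a muscle-type carnitine palmitoyltransferase, was at 13.6, 9.67 and 8.33 CPM in Double LKO livers, against 3.39, 3.54, 2.44 and 2.67 CPM in SCAP LKO livers (log2 1.80, SE 0.24, adjusted p = 0.000108). The thiolase *Acaa1b* rose by 1.40, the medium-chain dehydrogenase *Acadm* by 0.68 and the mitochondrial *Cpt2* by 0.60. The member that fell was *Bdh1*, an enzyme of ketone bodies (log2 -0.43, adjusted p = 0.0405, lost without any 1 of 5 libraries). Without Double LKO library 3, 6 members rose, and without library 2 the count was 17. *Cpt2* lost its call without library 3, and *Ehhadh*, *Cyp4a10* and *Acaa1b* stayed called with the line difference subtracted, the 3 of the list that did.

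Genes of fatty acid synthesis, desaturation and elongation split. Of 20 tested, 3 rose, 4 fell and 13 did not pass, with a median of -0.01, while with SCAP present 8 rose and none fell at a median of 0.46. *Acacb*, the acetyl-CoA carboxylase that sits on mitochondria and restrains fatty acid oxidation, was at 51.5, 48.6 and 30.5 CPM in Double LKO livers, against 6.05, 5.99, 6.67 and 13.6 CPM in SCAP LKO livers. It rose by 2.34 (SE 0.37, adjusted p = 0.000468) with no overlap, a size near its 1.99 with SCAP present, though from a lower base, since GFP controls spanned 28.5 to 96 (median 73) CPM. *Elovl3*, an elongase of long saturated chains, was at 64.4, 71.5 and 60.4 CPM in Double LKO livers, against 20.6, 36.5, 29 and 19.9 CPM in SCAP LKO livers (log2 1.32, SE 0.28, adjusted p = 0.00588). *Elovl6*, which extends palmitate to stearate, rose by 0.85 (adjusted p = 0.0466), a call lost without any 1 of 5 of the 7 libraries, at 0.72 to 0.97.

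The called enzymes of polyunsaturated fatty acids went the other way. *Elovl2*, which elongates these chains, was at 213, 192 and 226 CPM in Double LKO livers, against 405, 361, 369 and 390.1 CPM in SCAP LKO livers. All 3 Double LKO libraries lay below all 4 SCAP LKO libraries (log2 -0.86, SE 0.17, adjusted p = 0.00297), while with SCAP present the log2 fold change was 0.08 (adjusted p = 0.756). *Fads1*, the delta-5 desaturase, was at 44.4, 20.7 and 26.8 CPM in Double LKO livers, against 61.7, 55.2, 49.9 and 68.6 CPM in SCAP LKO livers, again without overlap (log2 -0.97, SE 0.20, adjusted p = 0.00442). With SCAP present its log2 fold change was 0.15 (adjusted p = 0.597), with 374 to 540.3 CPM in HDAC3 LKO livers and 333 to 428 (median 384) CPM in GFP controls. *Fads2*, the delta-6 desaturase, was at 96.3, 86.5 and 85.1 CPM in Double LKO livers, against 158, 122, 114 and 131 CPM in SCAP LKO livers. It fell by 0.55 there (SE 0.15, adjusted p = 0.0324) and rose by 0.63 with SCAP present (adjusted p = 0.00213), to 528 to 865 CPM in HDAC3 LKO livers, against 376 to 429 (median 419.8) CPM in GFP controls. The *Fads2* call without SCAP was lost without Double LKO library 3 or 4 or SCAP LKO replicate 1 or 4, at -0.45 to -0.55 (adjusted p up to 0.105). The fourth called member was the mitochondrial citrate carrier *Slc25a1* (log2 -0.31, adjusted p = 0.0387), whose call was lost without any 1 of 5 libraries. Leaving out Double LKO library 3 or SCAP LKO replicate 1 left 2 members higher and 2 lower, leaving out library 4 left 3 higher and 2 lower, and leaving out library 2 gave 5 higher and 3 lower. With the line difference subtracted *Elovl2*, *Fads1* and *Fads2* had log2 values of -1.02, -0.97 and -0.57 and were not called. That subtraction turned the sign of uncalled members, among them *Scd1* to 0.39 and *Acss2* to 0.49, and gave *Fasn* 1.29, none of them called, and over the list it left 2 members higher and none lower at a median of 0.27.

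**Figure D3:**
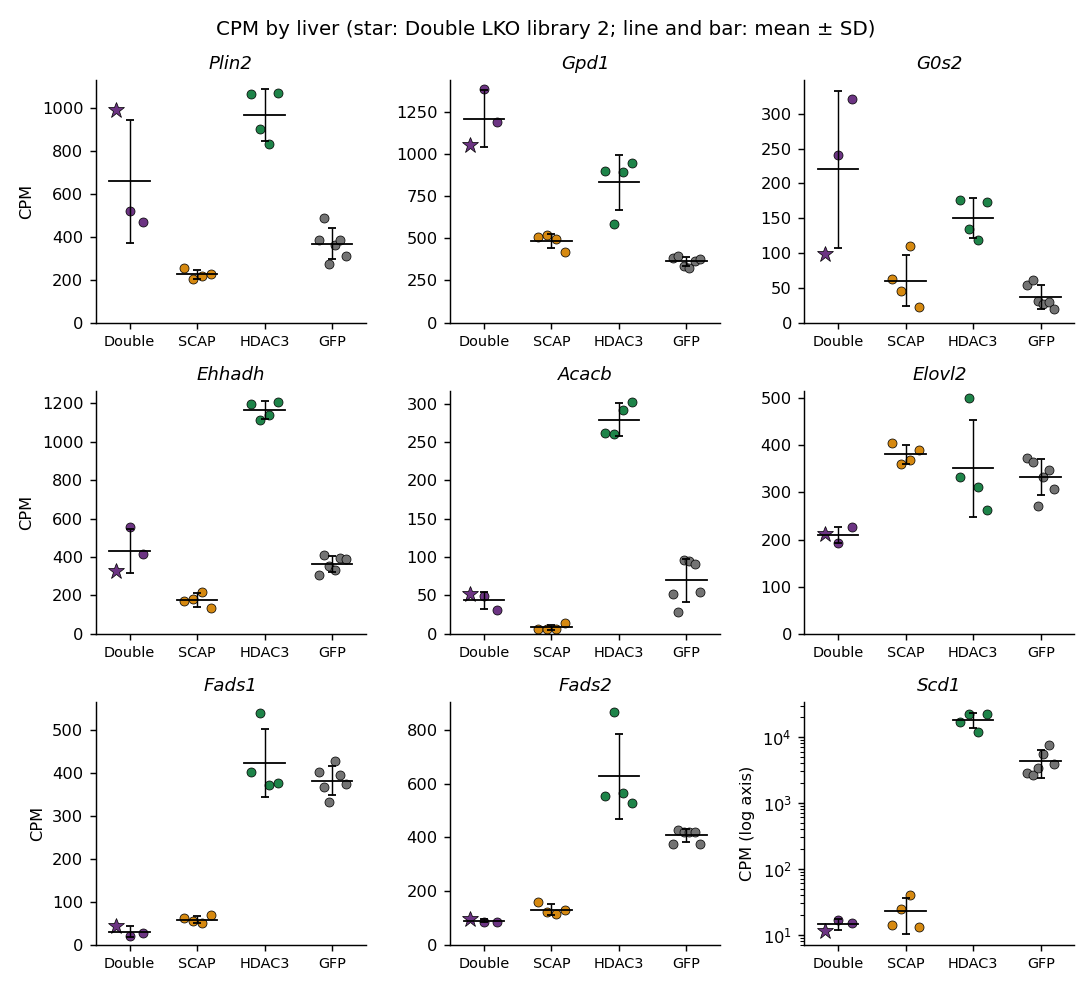
CPM in each liver of 9 genes by group (Double LKO, SCAP LKO, HDAC3 LKO, GFP control from left to right), with points for libraries, a star for Double LKO library 2, a line at the mean and a bar of 1 SD. *Plin2*, *Gpd1*, *Ehhadh* and *Acacb* are higher in all Double LKO than in all SCAP LKO livers, *Elovl2*, *Fads1* and *Fads2* are lower in all, and *Scd1*, on a log axis, stays at 11.3 to 39.8 CPM in both.

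The desaturase *Scd1*, which makes monounsaturated fatty acids, was low in every library without SCAP. It was at 11.3, 16.8 and 14.9 CPM in Double LKO livers and 13.8, 24.5, 39.8 and 13 CPM in SCAP LKO livers, groups that overlap (log2 -0.66, SE 0.41, adjusted p = 0.372). With SCAP present it spanned 12050.0 to 22210.0 CPM in HDAC3 LKO livers, against 2691 to 7671 (median 3622) CPM in GFP controls (log2 2.08). The difference of the effects was -2.74 (95% interval -3.82 to -1.66, unadjusted p = 4.13e-05). *Acss2*, which activates acetate, had -0.17 without SCAP and 0.94 with it, a difference of -1.11 (unadjusted p = 0.00153). The malic enzyme *Me1*, a source of NADPH, had -0.41 without SCAP and 0.62 with it, a difference of -1.02 (unadjusted p = 0.00213). *Elovl5*, another elongase of polyunsaturated chains, had 0.75 without SCAP (adjusted p = 0.0866) and 1.62 with it. The synthase *Fasn* was not called in either comparison, at 0.32 without SCAP and 0.58 with it. Across the list 14 of 20 differences lay below 0 and 8 had an unadjusted p under 0.05, against 601 of 12009 genes tested. Of all genes tested 50% had a difference above 0. With the line difference subtracted 12 of the 20 lay below 0, 8 lay above 0 and 8 had such a p.

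**Figure D4:**
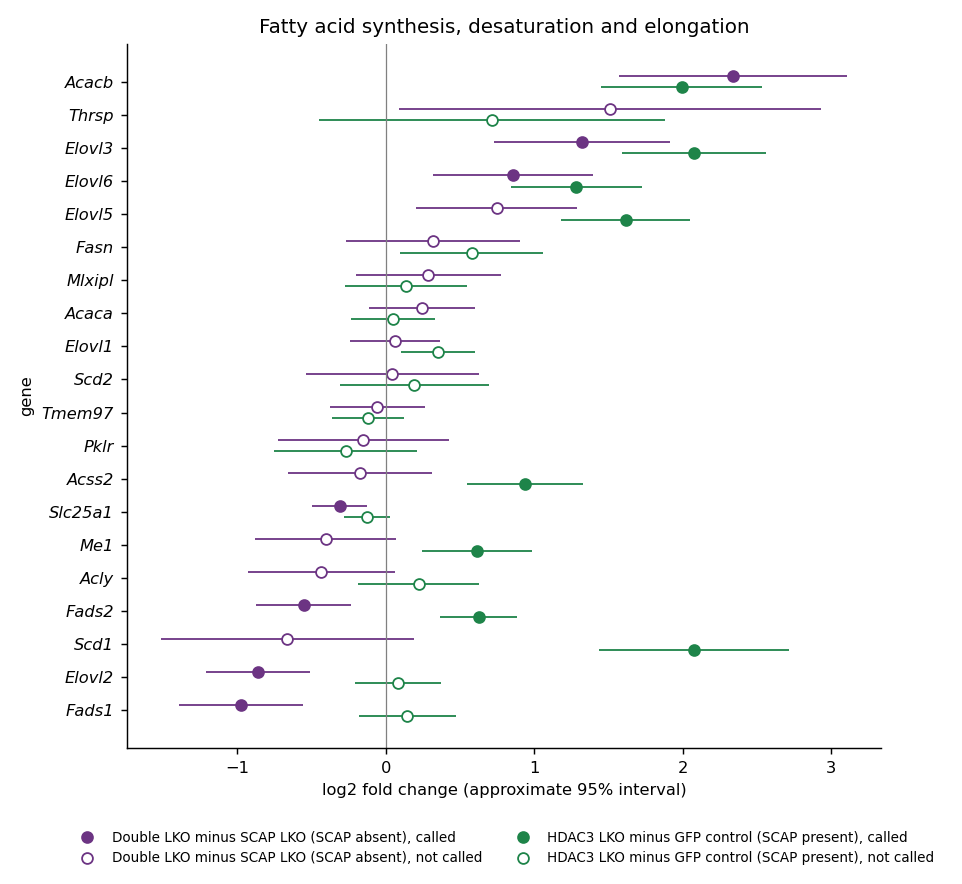
Log2 fold change with an approximate 95% interval for the 20 tested genes of fatty acid synthesis, desaturation and elongation, Double LKO minus SCAP LKO (upper mark of each pair, SCAP absent) and HDAC3 LKO minus GFP control (lower mark, SCAP present), filled where called. *Fads2* is filled on opposite sides of 0, and the intervals of *Scd1* do not meet.

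The difference of the effects was tested gene by gene. Its part with SCAP present sets Cre against GFP, while its part without SCAP has Cre on both sides. Virus and SCAP therefore cannot be told apart in it. By edgeR no gene was called (601 at an unadjusted p under 0.05), while DESeq2 called 15 genes and limma voom with quality weights called 6. Of the 15, 10 had a difference above 0 and 5 below 0. *Fads2* had a difference of -1.18 (95% interval -1.59 to -0.76, edgeR adjusted p = 0.126, DESeq2 4.05e-06, voom 0.00531). *Scd1* had adjusted p-values of 0.248 by edgeR, 0.0012 by DESeq2 and 0.0249 by voom. *Fads1* (-1.12) had 0.506 by edgeR, 0.00207 by DESeq2 and 0.00531 by voom. *Elovl2* (-0.94) had 0.506 by edgeR, 0.00317 by DESeq2 and 0.119 by voom. DESeq2's independent filter had left 601 genes to adjust over, and adjusted over all 11996 genes with a p, in an alternative added after seeing the data, it called 4, all below 0. These were *Fads2* (8.08e-05), *Scd1* (0.024), *Fads1* (0.0412) and *Slco2a1*, a prostaglandin transporter (-0.86, 0.0484), while *Elovl2* had 0.0506. *Cyp2c55*, a cytochrome (-1.42), and *Ano10*, an anoctamin (-0.87), had no DESeq2 adjusted p under the filter and were called by voom (0.0249 and 0.0498). The sixth voom call was *Itih4*, an inter-alpha-trypsin inhibitor heavy chain and the one above 0 (0.90, voom 0.0249, DESeq2 0.00648). With the line difference subtracted, also added after seeing the data, no difference was called (565 at an unadjusted p under 0.05), and *Fads2* had -1.15, *Fads1* -1.13, *Elovl2* -1.25 and *Scd1* -1.64, at unadjusted p-values of 0.00209, 0.0112, 0.00154 and 0.0287, while *Acss2* had -0.19 (unadjusted p = 0.607).

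The SREBP machinery had 1 called member of 10. *Insig2*, which holds SCAP in the endoplasmic reticulum, was at 263, 139 and 106 CPM in Double LKO livers, against 50.4, 37.5, 53.8 and 58.5 CPM in SCAP LKO livers, without overlap. It rose by 1.73 (SE 0.24, adjusted p = 0.000206), beside 1.69 with SCAP present, and by 1.27 without library 2, while it was not called with the line difference subtracted (log2 1.55, adjusted p = 0.115). *Srebf1*, which encodes SREBP1, was at 32, 45.3 and 26.5 CPM in Double LKO and 14.8, 16.6, 34.4 and 21.1 CPM in SCAP LKO livers (log2 0.63, adjusted p = 0.329), against 166 to 462 (median 229.8) CPM in GFP controls. With the line difference subtracted its log2 value was 1.83 (adjusted p = 0.0598). *Srebf2* was at 0.20 and the SREBP target *Insig1* at -0.38, and neither passed. Of 22 genes of cholesterol synthesis and uptake tested, 1 rose, 1 fell and 20 did not pass, at a median of -0.17. The member that fell was lanosterol synthase *Lss*, which was at 12.2, 12.4 and 9.55 CPM in Double LKO livers, against 13.8, 15.8, 15.9 and 17.7 CPM in SCAP LKO livers (log2 -0.52, adjusted p = 0.0162), a call lost without Double LKO library 4 or SCAP LKO replicate 4.

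*Arntl*, *Plin2* and *Insig2* rose together in both comparisons, and their promoters are shown because each holds the half-site that REV-ERB and ROR receptors read, TAGGTCA or TGGGTCA on either strand, here in capitals. The windows run from 250 bases before to 50 after the RefSeq gene start on GRCm38.p6, at chr7:113207261-113207560 (+ strand) for *Arntl*, chr4:86670010-86670309 (- strand) for *Plin2* and chr1:121327975-121328274 (- strand) for *Insig2*. The sequences are from RefSeq.
Arntl: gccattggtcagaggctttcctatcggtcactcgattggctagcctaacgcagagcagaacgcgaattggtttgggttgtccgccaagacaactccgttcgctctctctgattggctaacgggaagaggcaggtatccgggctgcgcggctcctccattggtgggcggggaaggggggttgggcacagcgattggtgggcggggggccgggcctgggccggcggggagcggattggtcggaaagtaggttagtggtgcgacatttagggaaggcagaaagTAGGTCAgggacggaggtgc
Plin2: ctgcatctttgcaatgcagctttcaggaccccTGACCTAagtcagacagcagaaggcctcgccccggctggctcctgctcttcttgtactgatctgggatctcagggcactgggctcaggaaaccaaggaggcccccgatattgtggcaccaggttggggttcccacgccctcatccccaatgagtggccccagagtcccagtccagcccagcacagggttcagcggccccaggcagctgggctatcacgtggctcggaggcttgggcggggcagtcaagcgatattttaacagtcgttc
Insig2: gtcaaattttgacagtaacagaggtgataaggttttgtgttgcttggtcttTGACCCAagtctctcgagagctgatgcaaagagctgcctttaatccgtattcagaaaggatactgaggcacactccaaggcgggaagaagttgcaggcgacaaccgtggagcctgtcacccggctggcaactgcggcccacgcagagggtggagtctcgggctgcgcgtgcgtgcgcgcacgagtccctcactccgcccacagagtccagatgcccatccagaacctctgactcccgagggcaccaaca
The motif lies after the start in *Arntl* and before it in *Plin2* and *Insig2*, where the capitals show its reverse complement. Among genes with a promoter in the table, 9.15% of 448 called higher held at least 1 of the 2 motifs, against 7.45% of 255 called lower and 6.57% of 8606 genes tested. A match is a description of letters and was not tested for binding.

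Genes of xenobiotic metabolism with a call were all higher. Of 24 targets of the receptors CAR and PXR and related enzymes, 8 rose, none fell and 16 did not pass, at a median of 0.77, while with SCAP present 13 rose at a median of 0.82. *Cyp3a11*, a major drug-metabolizing cytochrome P450, was at 8717, 14310.0 and 11360.0 CPM in Double LKO livers, against 6273, 6428, 6648 and 6096 CPM in SCAP LKO livers (log2 0.85, SE 0.19, adjusted p = 0.00966, lost without library 3). *Cyp2a5*, which oxidizes coumarin, was at 3115, 5563 and 5822 CPM in Double LKO livers, against 1916, 2441, 1687 and 1686 CPM in SCAP LKO livers (log2 1.32, SE 0.24, adjusted p = 0.00139). Neither gene's groups overlap. *Cyp2c38* rose by 1.37 (adjusted p = 0.00048) and *Ugt1a1*, which conjugates bilirubin, by 0.64 (adjusted p = 0.00373). The count was 5 without either Double LKO library 3 or SCAP LKO replicate 3, 12 without Double LKO library 2, 7 without Double LKO library 2 and SCAP LKO replicate 4 together, and 3 with the line difference subtracted. These cytochromes belong to families of near-identical genes, and how shared reads were split between them in the authors' counting is not stated in the labels.

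Glutathione transferases and NRF2 targets had 10 members that rose and 2 that fell of 26, at a median of 0.32 (12 and 2 with SCAP present). *Gstt1*, a theta-class transferase, was at 321, 634 and 522 CPM in Double LKO livers, against 178, 189, 197 and 136 CPM in SCAP LKO livers (log2 1.50, SE 0.17, adjusted p = 4.87e-05), beside 1.51 with SCAP present. *Gsta2* was at 98, 133 and 75 CPM in Double LKO livers, against 32.5, 39.2, 29.3 and 27 CPM in SCAP LKO livers (log2 1.69, SE 0.24, adjusted p = 0.000205). Both stayed called with the line difference subtracted. *Gstp1*, a pi-class transferase, was at 700.0, 534 and 773 CPM in Double LKO livers, against 1354, 1424, 1524 and 1092 CPM in SCAP LKO livers, and fell by 1.01 (SE 0.18, adjusted p = 0.00105). Its near copy *Gstp2* had -1.21, and reads of the pair cannot be told apart with certainty. Library 2 carried much of the change, or the call itself, in several of the others. *Gstm3* was at 1176, 182 and 149 CPM in Double LKO livers, against 66.6, 92.5, 73 and 134 CPM in SCAP LKO livers (log2 2.44, adjusted p = 0.00344, and 0.84 without library 2, where it was still called). *Srxn1*, the sulfiredoxin that repairs peroxiredoxins, was at 654, 72.8 and 95.4 CPM in Double LKO livers, against 56.7, 74.5, 49 and 111 CPM in SCAP LKO livers (log2 1.89, adjusted p = 0.0349, and 0.21 with no call without library 2). Without library 2, 6 of the 26 rose, and 6 rose without SCAP LKO replicate 3.

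Acute phase genes, which encode plasma proteins of the inflammatory response and metallothioneins, had 6 members that rose and none that fell of 25, at a median of 0.44, against 2 higher and 2 lower at a median of -0.12 with SCAP present. *Orm1*, an orosomucoid, was at 748, 509 and 442 CPM in Double LKO livers, against 117, 182, 191 and 518 CPM in SCAP LKO livers. SCAP LKO replicate 4 lay above Double LKO libraries 3 and 4, so the groups overlap (log2 1.16, SE 0.33, adjusted p = 0.0351), and HDAC3 LKO livers at 508 to 755 CPM lay beside GFP controls at 492 to 659 (median 565) CPM. *Orm3* was at 27.8, 19.1 and 10.3 CPM in Double LKO livers, against 0, 0, 0.257 and 0.891 CPM in SCAP LKO livers, of which 2 libraries had no count, so its fitted log2 fold change of 5.53 depends on the prior count. *Orm1*, *Orm2* and *Orm3* are near-identical copies. *Hp* was at 7340.0, 5345 and 4898 CPM in Double LKO livers, against 3074, 3074, 2974 and 4898 CPM in SCAP LKO livers (log2 0.74, SE 0.21, adjusted p = 0.0367). The metal-binding *Mt2* was at 35.9, 52.1 and 24.4 CPM in Double LKO livers, against 10.9, 4.9, 5 and 10.2 CPM in SCAP LKO livers, without overlap (log2 2.26, SE 0.61, adjusted p = 0.0276), while with SCAP present it had -0.85 (adjusted p = 0.34). *Mt1* rose by 1.49 (adjusted p = 0.0481). Of the 25 differences between the effects 21 lay above 0 and 10 had an unadjusted p under 0.05, against 6010 and 601 of the 12009 genes tested. With the line difference subtracted 22 of the 25 lay above 0 and 5 had such a p.

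The acute phase calls depended on single libraries and on the line. Leaving out SCAP LKO replicate 1, 2 or 3 left 2, 1 and 1 genes called, leaving out Double LKO library 3 left 3, and leaving out both Double LKO library 2 and SCAP LKO replicate 4 gave 7. *Orm1* and *Hp* each lost their calls without any 1 of 5 of the 7 libraries, *Orm2* without any 1 of 4, *Mt1* without any 1 of 6 and *Mt2* without any 1 of 3. *Orm2* had a log2 fold change of 0.79 without library 2, against 2.47 with it. With the line difference subtracted none of the 25 was called, and *Hp*, *Mt1* and *Mt2* had log2 values of 0.14, 0.78 and 0.89. Macrophage markers did not move as one list. *Cd68* was at 27.6, 6.53 and 5.56 CPM in Double LKO and 6.78, 9.79, 6.67 and 14.1 CPM in SCAP LKO livers, and the scavenger receptor *Marco* at 37.5, 6.41 and 8.99 CPM in Double LKO and 4.12, 12.2, 6.54 and 31.2 CPM in SCAP LKO livers, so library 2 and replicate 4 were the highest of their groups in each. Of the 7 macrophage markers tested, replicate 4 was the highest SCAP LKO library in 7, while library 2 was the highest Double LKO library in 4 and the lowest in 2, *Clec4f* (74.7, against 85 and 90.2 CPM in libraries 3 and 4) and *Csf1r* (54.3, against 60.1 and 64.9 CPM). These 7 markers summed to 299.2 to 377.8 CPM in Double LKO and 299 to 479 CPM in SCAP LKO livers and none was called. Their part in the acute phase values was not tested.

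**Figure D5:**
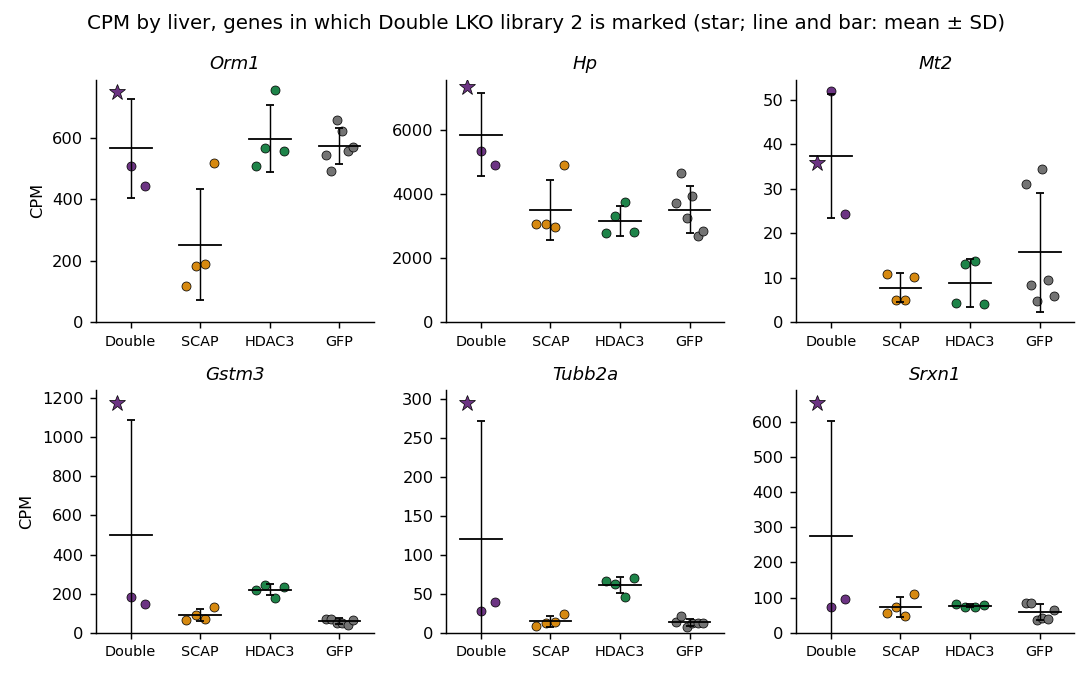
CPM in each liver of 6 genes by group (Double LKO, SCAP LKO, HDAC3 LKO, GFP control from left to right), with points for libraries, a star for Double LKO library 2, a line at the mean and a bar of 1 SD. *Gstm3*, *Tubb2a* and *Srxn1* are far higher in Double LKO library 2 than in libraries 3 and 4, whereas *Mt2* is higher in all 3 Double LKO than in all 4 SCAP LKO libraries.

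The list of sex-biased liver genes and genes of steroid metabolism moved both ways. Of 22 tested, 3 rose, 3 fell and 16 did not pass, against 4.98% higher and 3.01% lower over all genes tested. With the line difference subtracted none of the 22 was called. Leaving out Double LKO library 3 or SCAP LKO replicate 1, 2 or 3 left 1 member higher. *Mup20*, a male-biased major urinary protein, was at 3746, 2053 and 2612 CPM in Double LKO livers, against 8152, 6107, 9806 and 10120.0 CPM in SCAP LKO livers, and fell by 1.61 without overlap (SE 0.31, adjusted p = 0.00301). With SCAP present *Mup20* spanned 1203 to 3371 CPM in HDAC3 LKO livers and 2985 to 6027 (median 3657) CPM in GFP controls. All SCAP LKO libraries lay above all GFP controls. *Mup20* belongs to a cluster of near-identical genes. *Slco1a1*, a male-biased transporter of organic anions, was at 241, 286 and 550.2 CPM in Double LKO livers, against 910.4, 730.4, 929 and 712 CPM in SCAP LKO livers, and fell by 1.19 (SE 0.24, adjusted p = 0.00418). *Hsd3b5*, a male-biased steroid dehydrogenase, was at 0.23, 23.6 and 81.9 CPM in Double LKO livers, against 158, 178, 228 and 172 CPM in SCAP LKO livers, and library 2 was nearly without it. Its log2 fold change of -2.28 (adjusted p = 0.0324) was -1.78 without library 2 and lost its call without Double LKO library 3 or SCAP LKO replicate 1, 2 or 3. With SCAP present *Hsd3b5* spanned 14.2 to 65.5 CPM in HDAC3 LKO livers, against 187 to 268 CPM in GFP controls. *Slco1a1* spanned 244 to 441 CPM in HDAC3 LKO livers, against 575 to 826 CPM in GFP controls. *Cyp2b9*, a female-biased cytochrome, was at 218, 231 and 44.5 CPM in Double LKO livers, against 28.8, 22.3, 13.3 and 36 CPM in SCAP LKO livers (log2 2.69, SE 0.71, adjusted p = 0.0233), a call lost without Double LKO library 3 or SCAP LKO replicate 1, 2 or 3. *Hsd17b2* rose by 0.52 (adjusted p = 0.0357), a call lost without any 1 of 6 libraries.

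Of 18 bile acid genes 2 rose and 1 fell, and of 18 lipoprotein genes 3 rose. Over all genes tested 4.98% rose and 3.01% fell. *Abcb4*, the phospholipid exporter of bile, was at 893, 656 and 698 CPM in Double LKO livers, against 452, 467, 383 and 504 CPM in SCAP LKO livers (log2 0.73, SE 0.14, adjusted p = 0.00266). *Cyp27a1*, which starts the acidic pathway of bile acid synthesis, was at 372, 503 and 490.0 CPM in Double LKO livers, against 273, 297, 294 and 229 CPM in SCAP LKO livers (log2 0.74, SE 0.15, adjusted p = 0.00357). With *Slco1a1*, which fell, they are the 3 called of 18 bile acid genes. *Cyp7a1*, the rate-limiting enzyme of the classic pathway, was at 269, 407 and 399.6 CPM in Double LKO and 63.7, 282, 211 and 73.4 CPM in SCAP LKO livers, a difference that was not called (adjusted p = 0.208). *Tm6sf2*, which lipidates very low density lipoprotein, was at 37.2, 35.1 and 35.6 CPM in Double LKO livers, against 14.5, 18.2, 16.2 and 19.7 CPM in SCAP LKO livers (log2 1.06, SE 0.15, adjusted p = 0.000251). *Apoa4*, an apolipoprotein known to rise in fatty mouse liver, was at 1107, 59.1 and 41.7 CPM in Double LKO livers, against 45, 44.3, 40.8 and 119 CPM in SCAP LKO livers, and its call (log2 2.66, adjusted p = 0.0305) rested on library 2, without which it was at -0.34. *Lipc*, hepatic lipase, rose by 0.49 (adjusted p = 0.0481), a call lost without any 1 of 5 libraries, and completes the 3 called of 18 lipoprotein genes, a count of 5 without Double LKO library 2 and of 1 without SCAP LKO replicate 2 or 3. Of 18 genes of fatty acid uptake and activation 1 rose, *Vldlr*, the very low density lipoprotein receptor, at 17.2, 10.8 and 4.75 CPM in Double LKO livers, against 1.94, 3.81, 1.67 and 1.91 CPM in SCAP LKO livers (log2 2.20, adjusted p = 0.0217, lost without any 1 of 5 libraries). With SCAP present 7 of these 18 rose and 1 fell.

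In the lists of amino acid, sugar and receptor genes at most 2 members rose and at most 1 fell. Over all genes tested 4.98% were called higher and 3.01% lower. *Oat*, ornithine aminotransferase, was at 1922, 1727 and 1351 CPM in Double LKO livers, against 659, 624, 492 and 844 CPM in SCAP LKO livers, without overlap (log2 1.35, SE 0.20, adjusted p = 0.000287). *Cbs*, the first enzyme of transsulfuration, rose by 0.69 (adjusted p = 0.000927), and these were the 2 called of 23 amino acid genes. Without Double LKO library 2 the list had 10 calls, all higher, and without that library and SCAP LKO replicate 4 it had 7. *Eno1*, a glycolytic enolase, was at 73.1, 98.3 and 82.7 CPM in Double LKO livers, against 54.5, 46.8, 51 and 47.2 CPM in SCAP LKO livers (log2 0.77, SE 0.10, adjusted p = 8.15e-05). The carboxylase *Pcx*, which feeds gluconeogenesis, rose by 0.54 (adjusted p = 0.00591), the 1 called of 11 in its list. *Nr1h3*, the oxysterol receptor LXR alpha, was the 1 called of 20 nuclear receptors and coactivators (log2 -0.34, adjusted p = 0.0337), a call lost without any 1 of 4 libraries. *Pparg*, the adipogenic receptor that fatty liver often expresses, was at 28.3, 16.4 and 15.1 CPM in Double LKO and 11.4, 12.2, 7.83 and 10.8 CPM in SCAP LKO livers, a difference that was not called (log2 0.89, adjusted p = 0.0605), although its groups do not overlap.

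Outside the lists, some of the largest changes were in transporters. *Slc16a5*, a monocarboxylate transporter family member, was at 139, 72.5 and 74 CPM in Double LKO livers, against 19.4, 15.2, 14.6 and 24.6 CPM in SCAP LKO livers (log2 2.34, SE 0.23, adjusted p = 1.19e-05). *Slc41a2*, a magnesium transporter, was at 153, 124 and 143 CPM in Double LKO livers, against 23.2, 26.1, 26.6 and 38.3 CPM in SCAP LKO livers (log2 2.27, SE 0.29, adjusted p = 8.66e-05), beside 1.01 with SCAP present. *Aqp8*, a water and peroxide channel of hepatocytes, was at 257, 119 and 79.6 CPM in Double LKO livers, against 24.2, 22.9, 23.4 and 27.9 CPM in SCAP LKO livers (log2 2.60, SE 0.32, adjusted p = 6.91e-05). In each gene all Double LKO libraries lay above all SCAP LKO libraries. The peroxisomal acyltransferase *Acnat2* rose by 2.43, the tropomyosin *Tpm2* by 2.58 and the proton pump subunit *Atp6v0d2* by 2.43. *Tubb2a*, a beta tubulin, was at 294, 28 and 39.2 CPM in Double LKO livers, against 8.23, 12, 13.3 and 24.6 CPM in SCAP LKO livers, so that its 2.94 became 1.16 without library 2 (adjusted p = 0.0224).

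Among the genes lower in Double LKO livers, *Nox4*, an NADPH oxidase, was at 5.52, 17.6 and 17.6 CPM in Double LKO livers, against 55.2, 55.2, 54.4 and 41.2 CPM in SCAP LKO livers (log2 -1.82, SE 0.23, adjusted p = 7.29e-05). *Col27a1*, a fibrillar collagen, was at 4.14, 14.8 and 12.7 CPM in Double LKO livers, against 48.2, 54.4, 53.6 and 39.1 CPM in SCAP LKO livers (log2 -2.10, SE 0.30, adjusted p = 0.00022). *Sucnr1*, the succinate receptor, was at 3.68, 5.29 and 4.45 CPM in Double LKO livers, against 20.3, 17.4, 24.4 and 14.5 CPM in SCAP LKO livers (log2 -2.07, SE 0.35, adjusted p = 0.000927). These 3 genes show no overlap between the groups, and all 3 fell with SCAP present too, by 2.10, 2.19 and 1.11 on the log2 scale. *Spc25*, a kinetochore subunit, was at 2.3, 2.7 and 2.37 CPM in Double LKO livers, against 8.72, 10.1, 9.75 and 8.53 CPM in SCAP LKO livers (log2 -1.90, SE 0.24, adjusted p = 7.27e-05), and stayed called with the line difference subtracted. *Alas2*, the erythroid enzyme of heme synthesis, fell by 1.44 (adjusted p = 0.000206) to 21.2, 33.3 and 30.9 CPM in Double LKO livers, against 81.1, 85.4, 86.5 and 62.1 CPM in SCAP LKO livers. *Gpr110*, *Pcp4l1*, *Capn3*, *Rec8*, *Aqp4*, *Olfm3*, *Cspg5* and *Slc22a28* also fell, by 1.71 to 2.43 on the log2 scale, and were at or under 10.4 CPM in SCAP LKO libraries save *Pcp4l1*. The call of *Cspg5* was lost without Double LKO library 3.

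Several lists held at most 1 call. None of 17 secreted liver hormones and carriers and none of 18 inflammatory and interferon genes was called, against 7.99% of all genes tested. Of 20 genes of the unfolded protein response 1 was called lower. Of 15 collagen and matrix genes 1, *Col27a1*, was called lower, against 3.01% of all genes tested. Without Double LKO library 2, 3 of the unfolded protein response genes were lower. Markers of hepatocytes (5 tested), macrophages (7), stellate cells (6), endothelium (6) and cholangiocytes (2) held no call, and hepatocyte markers summed to 61800 to 109700 CPM in Double LKO and 93440 to 124500 CPM in SCAP LKO livers. The lowest Double LKO sum was that of library 2, and libraries 3 and 4 lay within the SCAP LKO range. Of 3 erythroid markers *Alas2* was called, and the hemoglobin genes *Hba-a1* and *Hbb-b1* were not. The list summed to 51.05 to 70.42 CPM in Double LKO and 94.57 to 135.9 CPM in SCAP LKO livers. Of these sums *Alas2* itself held 21.2 to 33.3 CPM in Double LKO and 62.1 to 86.5 CPM in SCAP LKO livers. Markers of lymphocytes and neutrophils were too low to be tested, at sums of 1.919 to 4.369 and 0.7875 to 2.989 CPM in Double LKO livers and 1.36 to 3.182 and 0.385 to 2.164 CPM in SCAP LKO livers.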

How the data were processed

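RNA was sequenced from the livers with the TruSeq RNA kit v2, per the labels' protocols. The values of the deposited table are read counts, whole numbers for each RefSeq transcript that the authors left without normalization, as the values themselves show. The submitters' processing notes name edgeR and the build mm9. The sources used here do not say how RNA reads were aligned and counted. Of 28644 transcripts 22869 were used, the 1 that the authors marked for each gene. A further 17 columns of per-sample values were not used. Columns of Double LKO libraries carry the numbers 2 to 4 and were tied to their group, not to a numbered sample. Library pairs within a group differed by more than sampling noise (chi-square per degree of freedom 2.859 to 40.94 over the 9 pairs of Double LKO and of SCAP LKO livers).

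The test was edgeR 4.0.16 under R 4.3.3 (TMM, filterByExpr, quasi-likelihood F-test) in 1 fit of 17 libraries in 4 groups, with 12009 genes tested and an adjusted p threshold of 0.05 (Benjamini-Hochberg). The contrasts were Double LKO minus SCAP LKO, HDAC3 LKO minus GFP control, and their difference. SE and 95% intervals were worked back from F and are approximate. DESeq2 1.42.0 and limma 3.58.1 (voom with quality weights) were alternatives. The fits were tested on simulated data. Principal components used log2 CPM with a prior count of 2.

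The members, lists and alternatives were chosen with earlier results of these data known. Named were *Hdac3*, *Scap*, the 14 called genes that rose most and the 14 that fell most on the log2 scale (log2 CPM of at least 1, no overlap between groups), from each list up to 6 members by p, the 2 most expressed members that did not pass, and all members of the SREBP, corepressor and clock lists. List members and other genes named beyond this rule (among them *G0s2*, *Mgll*, *Lipe*, *Plin5*, *Acss2*, *Me1*, *Elovl5*, *Srxn1*, *Itih4*, *Cd68* and *Marco*) were chosen after their values were seen. A few genes named by the rule are not reported here but stay in the list counts. The HDAC3 peak lists were not used, since their build is mm9 and the gene starts at hand are on GRCm38.p6.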

Additional observations from a re-analysis of the deposited data

Results flagged for a closer look

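Among the 4 SCAP LKO libraries, 1 library stood far from the other 3 in 13 of 138 genes examined. The rule flags about 1 in 20 independent genes by chance. These genes share the same 4 libraries, and some were chosen after their values were seen, so the count cannot be set against that rate. Replicate 4 was the highest for *Srebf2* (20.37 CPM, against 14.42 to 15.25 in the other 3), *Acacb* (13.62, against 5.985 to 6.673), *Apoa4* (119.4, against 40.81 to 45.04), *Nqo1* (23.04, against 14.53 to 15.53) and *Hp* (4898 CPM, against 2974 to 3074). The same replicate was the lowest for *Acadm* (294.3 CPM, against 368.3 to 382.3), *Cpt2* (103.5, against 134.9 to 139) and *Nox4* (41.24, against 54.41 to 55.22). Replicate 1 was the highest for *Me1* (41.16 CPM, against 34.11 to 34.9) and *Pcx* (503.4, against 436.4 to 445). Replicate 2 was the highest for *Lipe* (16.32 CPM, against 9.546 to 10.65), *Vldlr* (3.808, against 1.668 to 1.937) and *Cyp4a10* (146.6, against 47.86 to 63.78). The group of 3 Double LKO libraries was not examined in this way, and the genes in which its library 2 stood far from the other 2 libraries are given with the results above.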

How the results depend on the processing

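The 959 genes called in Double LKO against SCAP LKO livers numbered 1967 by limma voom with quality weights, 519 in a fit of the 7 libraries alone, 64 with the line difference subtracted and 93 with the replicate number as a block in a fit of the 7 libraries. Correlations of deviations between same-numbered libraries were -0.011, 0.251 and -0.293, against -0.42 to 0.449 between libraries of unlike number. Whether the number marks anything shared was not tested. The share of calls that were higher was 62.4%, against 72.6% in the fit of the 7 libraries, 77.4% with the block and 75% with the line difference subtracted. Leaving out 1 library gave 679 to 1077 calls. With the 2 HDAC3-floxed controls alone the calls in HDAC3 LKO against GFP control numbered 646 (1086 to 2084 with 1 library left out, the lowest without HDAC3 LKO replicate 4) and the genes called the same way in both 354, against 1149 by voom. The difference of the effects had 2 calls with no count filter, 15 by DESeq2, 4 by DESeq2 without independent filtering, 6 by voom, 3 without Double LKO library 2 and SCAP LKO replicate 4, 1 with the HDAC3-floxed controls alone, and 0 to 2 with 1 library left out. *Apoa4* reversed to -0.343 without Double LKO library 2, and spanned -0.343 to 3.204 with 1 library left out. With the line difference subtracted several named genes moved by over 1.5 times, some of them given with the results above. Among the others *Olfm3*, *Aqp4*, *Cpt2*, *Srxn1*, *Abcb4*, *Atp6v0d2* and *Elovl6* moved to log2 -0.77, -1.23, 0.38, 1.17, 0.47, 3.92 and 1.76. *Cyp2a5* moved to 0.87 and was no longer called (adjusted p = 0.396). The cause of these changes was not tested. The shares of genes near an HDAC3 peak were not run. RLE size factors, DESeq2 and the most-counted transcript kept the count of 959 within 1.5 times.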
